A study of Mus musculus with 12 samples.

Results

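The motile cilia axoneme genes were the 93 genes, of 21956 in the deposited table, whose symbols begin with Dnah, Dnai, Cfap, Rsph or Drc and a number, or are Tekt1 to Tekt5, together with Foxj1, Kif19a, Spata18, Ccdc39, Ccdc40, Tmem212, Spag6, Spag16, Spag17, Hydin and Mcidas. They were taken up because Kif19a and Spata18 were higher in knockout than in control mice after hemorrhage. The difference between those 2 groups is therefore described here without a test. Kif19a and Spata18 are given no test result of their own wherever a hemorrhage library enters. Counts over the cilia genes include both unless stated otherwise, and the count without them is given for ICH in floxed controls.

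RNA-seq covered 12 libraries of brain tissue in 4 groups of 3, each named by surgery and genotype. All mice carried floxed Fabp4 alleles, so none of the groups was wild type. Fabp4CKO mice also carried a tamoxifen-inducible Cre at the microglial gene Tmem119 and received tamoxifen before surgery, so that deletion was directed to microglia and not to ciliated cells. In the ICH-Fabp4flox/flox and ICH-Fabp4CKO groups, intracerebral hemorrhage (ICH) was induced by collagenase in the right striatum and tissue within millimetres of the hematoma was taken after 48 h, whereas Sham-Fabp4flox/flox and Sham-Fabp4CKO mice had a sham operation and the matching tissue was taken. Whether the floxed controls also received tamoxifen, the age of the floxed mice, the interval after sham surgery, and whether a library was 1 mouse or a pool were not given in the sources used here. The p-values accordingly measure the spread between these libraries.

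Motile cilia are hair-like projections that beat. Their core, the axoneme, is a ring of doublet microtubules around a central pair. Outer and inner dynein arms on the doublets drive the beat, while radial spokes, the central pair and the nexin-dynein regulatory complex set its waveform, and further proteins sit inside the doublet microtubules. In the brain, motile cilia are borne by ependymal cells, which line the ventricles and move cerebrospinal fluid, and choroid plexus epithelium carries cilia as well. Foxj1 is the forkhead factor that switches on axonemal genes, and RFX factors bind a palindromic promoter element, the X-box, in many of them. The striatum borders the lateral ventricle, so ependymal cells can enter such a sample.

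Promoters of 77 of the 93 genes were found in RefSeq (GRCm38.p6), by symbol or older symbol, as 85 windows of 300 bases, 250 before and 50 after the start. The sites below are shown because the X-box is the sequence feature that axonemal genes are best known to share. They match GTTNC and GNAAC with 3 bases between them (N, any base), a loose form of the X-box, on either strand, with the match in capitals and 8 flanking bases on each side, 5′ to 3′ along the gene, and the coordinates are those of the 300-base window.
Dnah9 (chr11:66168502-66168801, minus strand): ttccaccaGTTTCCCAGCAACaacgacgc
Dnai1 (chr4:41569544-41569843, plus strand): gcctgtcgGTTGCTGGGTAACcgcgtcag
Drc3 (chr11:60353130-60353429, plus strand): ggtgtttgGTTCCCCAGCAACcaaacgaa
Cfap90 (chr13:68597189-68597488, plus strand): aaggcgtaGTTGCCAGGCAACagccgagt
Tekt2 (chr4:126325597-126325896, minus strand): agggggcgGTTGCTCGGCAACcagagccg
Dnai2 (chr11:114727169-114727468, plus strand): cggccaggGTTGCTAGGCAACtggtaaac
Rsph3b (chr17:6948307-6948606, minus strand): aacctcggGTTGCTCGGCAACcgatgggg

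Such a match lay in 12 of the 77 genes (15.6%), against 1.12% of all 27025 genes with a window. Among those not printed were Tekt4 and the near-identical Dnah7a, Dnah7b and Dnah7c, which cannot be counted as separate. The shorter GTTGCC, which overlaps many of these sites, was present in 28 of the 77 genes (36.4%), against 14.1% of all genes. The tighter form, GTTNCC and GGNAAC with 2 bases between them, was found in Cfap20dc and Cfap298 alone (2.6% of the genes, against 0.529%), and the forkhead core GTAAACA in 4 (5.19%, against 4.05%). Of the 12, 11 were tested after ICH in floxed controls and 5 of these fell, among them Cfap90, Dnah9, Dnai1 and Drc3. Of the 75 cilia genes tested there other than Kif19a and Spata18, 41 fell. These motifs were selected after their counts had been seen, and a match is a description of letters, not of a bound site. The 2 promoters below show the 250 bases before the start of the outer arm gene Dnah9 (chr11:66168552-66168801, minus strand) and of the central pair gene Hydin (chr8:110266727-110266976, plus strand), the genes with the largest decreases of their kind after ICH in floxed controls, with the X-box-like match of Dnah9 and the GTTGCC core of Hydin, here on the opposite strand, in capitals.
Dnah9: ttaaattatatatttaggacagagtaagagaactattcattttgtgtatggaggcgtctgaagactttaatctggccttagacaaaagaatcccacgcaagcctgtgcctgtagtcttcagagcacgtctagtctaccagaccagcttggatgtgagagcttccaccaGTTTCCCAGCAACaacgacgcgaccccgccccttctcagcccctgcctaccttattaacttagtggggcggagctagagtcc
Hydin: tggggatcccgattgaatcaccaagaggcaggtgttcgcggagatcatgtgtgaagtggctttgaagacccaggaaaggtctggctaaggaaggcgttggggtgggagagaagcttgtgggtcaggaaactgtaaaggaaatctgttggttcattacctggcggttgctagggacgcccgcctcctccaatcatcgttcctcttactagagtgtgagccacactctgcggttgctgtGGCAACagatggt

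Total counts per library ranged from 15650813 to 22406216, of which the 93 genes took 6477 to 17610. Levels are given as CPM, counts relative to library size, scaled by the trimmed mean of M-values (TMM), in the order of libraries 1, 2 and 3 of a group. A gene at or under 3 counts in every library of a group is called at the floor. Fabp4 itself was counted 2, 1 and 2 times in Sham-Fabp4flox/flox, 0 in each Sham-Fabp4CKO library, 46, 63 and 24 times in ICH-Fabp4flox/flox and 5, 3 and 10 times in ICH-Fabp4CKO. Some libraries stood apart. ICH-Fabp4flox/flox library 1 had 16.3% mitochondrial counts against 7.90 to 11.9% elsewhere. ICH-Fabp4CKO library 1 had 1 count over Y-linked genes against 1302 to 2251 elsewhere. ICH-Fabp4CKO library 2 had 489 CPM over 6 cortical neuron markers, against 112 and 125 in the other libraries of its group, and 89.9 CPM over 6 meningeal fibroblast markers, against 850 and 1662.

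The samples contained RNA of ciliated cells in every group. Summed over 12 further ependymal markers, such as Ccdc153, Dynlrb2 and Ak7, the level was 49.4, 43.5 and 68.2 CPM in Sham-Fabp4flox/flox, 57.6, 68.1 and 78.6 in Sham-Fabp4CKO, 47.7, 37.8 and 21.4 in ICH-Fabp4flox/flox and 50.3, 47.0 and 38.2 in ICH-Fabp4CKO. A single marker, Rarres2, made up most of that sum in each ICH-Fabp4flox/flox library, at 28.1, 28.2 and 17.3 CPM. Without it, a step taken after the values were seen, the other 11 markers summed to 37.1, 34.4 and 54.8 CPM in Sham-Fabp4flox/flox and to 19.6, 9.66 and 4.04 CPM in ICH-Fabp4flox/flox. They summed to 46.3, 54.5 and 63.1 CPM in Sham-Fabp4CKO and to 35.6, 34.8 and 27.2 CPM in ICH-Fabp4CKO, so within each genotype the sham and ICH libraries did not overlap. By contrast, 7 male germ cell markers, chosen because many axonemal genes also serve the sperm tail, summed to 0 in 8 libraries and to at most 0.219 CPM in the others. Fewer ciliated cells in the tissue and less RNA per ciliated cell cannot be told apart in such bulk samples.

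**Figure D1:**
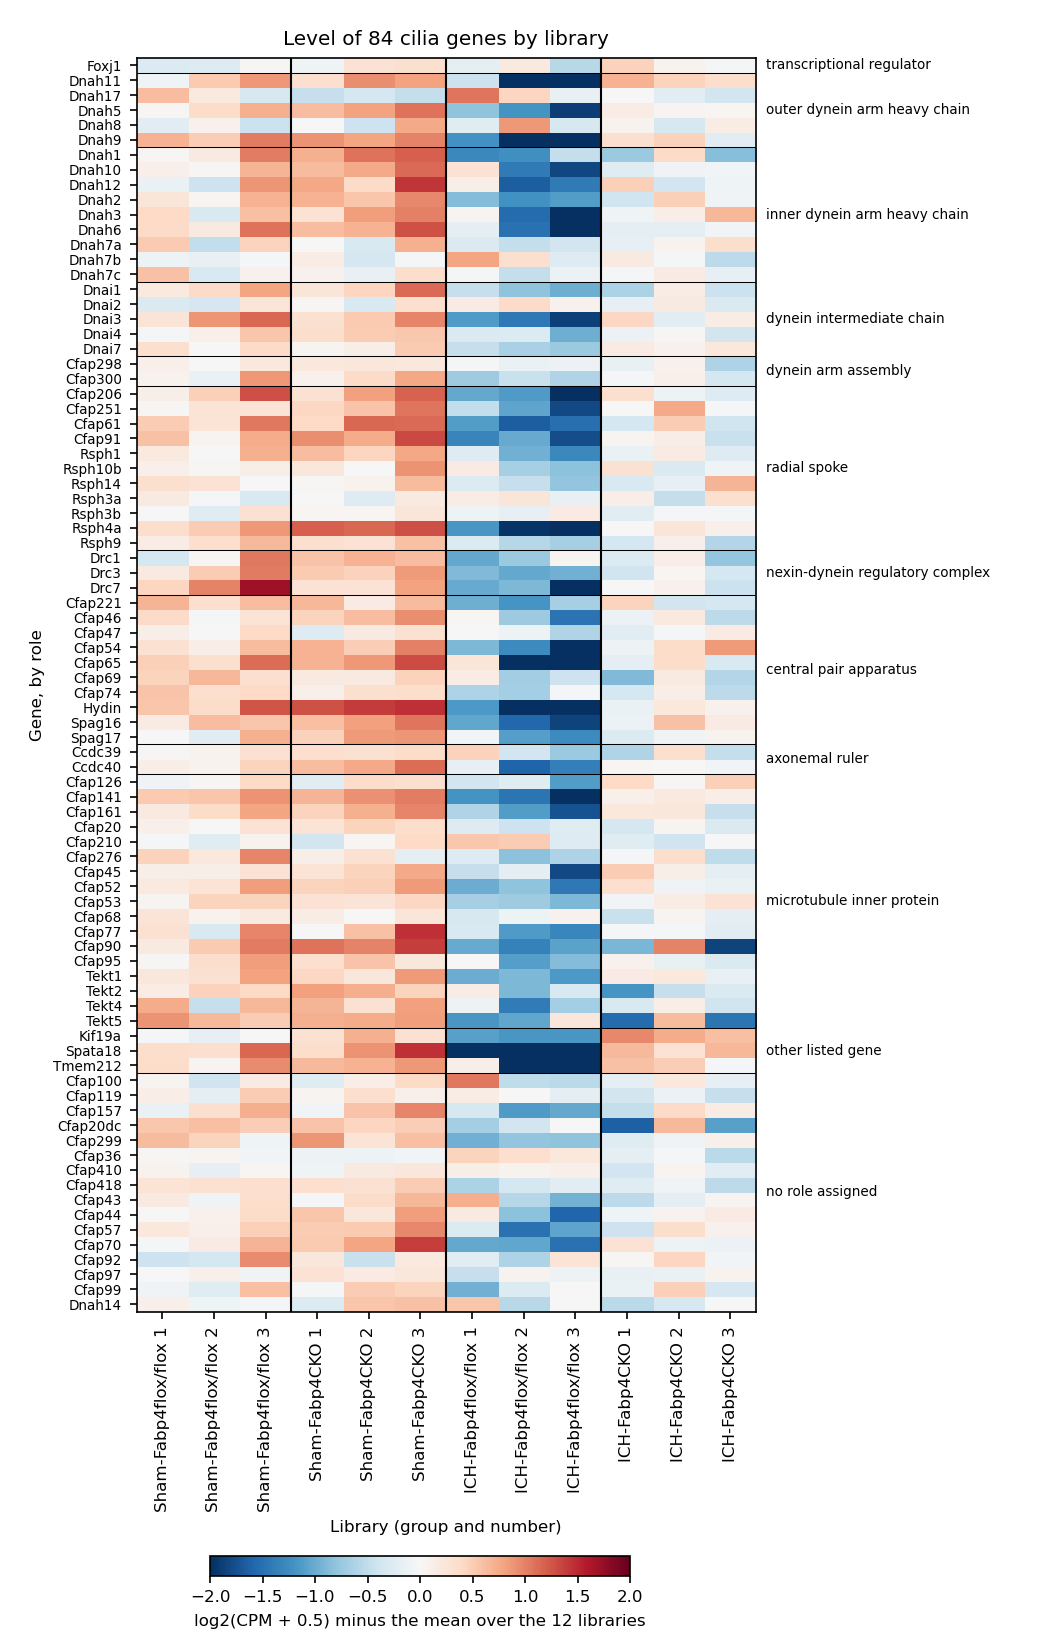
Level of the 84 genes that passed the count filter over the 12 libraries, each row a gene, grouped by role, and each column a library. Colour is log2(CPM + 0.5) minus the gene's mean over the 12 libraries, with the scale ending at 2 in either direction. The ICH-Fabp4flox/flox columns are the darkest blue (lowest), and Foxj1, Rsph3a and Rsph3b vary little.

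Summed over the 93 genes, the level was 601, 589 and 739 CPM in Sham-Fabp4flox/flox, 668, 703 and 809 in Sham-Fabp4CKO, 456, 416 and 397 in ICH-Fabp4flox/flox and 489, 578 and 457 in ICH-Fabp4CKO. The ICH-Fabp4flox/flox libraries were all below the 6 sham libraries, and so were the ICH-Fabp4CKO libraries, of which library 2 came close to the lowest sham library. Highly expressed genes weigh most in this sum. Cfap36, singled out after its values were seen, held 1379, 1240 and 1215 of the 12468, 10751 and 14304 counts in Sham-Fabp4flox/flox. In ICH-Fabp4flox/flox it held 1262, 1323 and 1414 of 6477, 6678 and 7469. Among the 84 genes with enough counts to compare all groups, the lowest of the 4 group means was in ICH-Fabp4flox/flox for 64 and in ICH-Fabp4CKO for 14. The highest was in Sham-Fabp4CKO for 59 and in Sham-Fabp4flox/flox for 15.

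The first comparison asked how these genes responded to ICH in floxed control mice. Genes of nearly every axonemal structure fell: of 77 genes tested, 43 fell and 0 rose at an adjusted p below 0.05 (edgeR's quasi-likelihood test, Benjamini-Hochberg over all genes, here and below). Of all 14719 genes tested, 19.3% fell and 26.2% rose. At an unadjusted p below 0.05, 45 of the 77 were lower and 0 higher, beside 24.9% and 30.3% of all genes, and DESeq2 called 0 higher. Without Kif19a and Spata18 the count was 41 of 75. The median log2 fold change of the 75 genes was -1.35, beside 0.02 over all genes, and 67 of them were below 0, against 49.1% of all genes. ICH-Fabp4flox/flox lay wholly under Sham-Fabp4flox/flox for 48 of the 75 and wholly over it for 2, shares that were 27.4% and 34.4% over all genes. The count was 26 of 81 genes tested without ICH-Fabp4flox/flox library 2, where the share of all genes that fell was 9.83%. It was 53 of 82 without library 1, the library with the high mitochondrial share, beside 15.3% of all genes.

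Outer arm heavy chains, the motors that set beat frequency, showed some of the deepest decreases, with 3 of 4 tested genes lower and a median of -2.21. Dnah9 (ENSMUSG00000056752), the distal outer arm chain, measured 10.6, 9.15 and 13.5 CPM in Sham-Fabp4flox/flox, 12.2, 11.2 and 13.01 in Sham-Fabp4CKO, 2.46, 1.06 and 1.06 in ICH-Fabp4flox/flox and 8.02, 8.90 and 5.36 in ICH-Fabp4CKO. Every ICH-Fabp4flox/flox library was below every other library, and the ICH-Fabp4CKO libraries lay between these and the sham libraries. Its log2 fold change after ICH in controls was -2.92 ± 0.37 (SE, adjusted p = 0.00118, n = 3 per group). Dnah5, an outer arm chain that is mutated in many people with primary ciliary dyskinesia, was at 5.16, 6.63 and 8.57 CPM in Sham-Fabp4flox/flox, 8.04, 9.22 and 11.3 in Sham-Fabp4CKO, 2.67, 1.93 and 1.01 in ICH-Fabp4flox/flox and 5.62, 5.27 and 5.19 in ICH-Fabp4CKO. The groups did not overlap after ICH in either genotype, and Dnah5 fell by 1.92 in controls (adjusted p = 0.00713). Dnah17 and Dnah8, whose products are best known from sperm, did not share the pattern: Dnah17 gave 0.40 ± 0.58 (adjusted p = 0.59) and Dnah8 was too low to test in this comparison. These last values were singled out after they had been seen.

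Of the inner arm heavy chains, which shape the bend, 3 of 8 fell, with a median of -1.58. Dnah2 was at 3.90, 3.34 and 5.58 CPM in Sham-Fabp4flox/flox, 5.55, 5.01 and 6.76 in Sham-Fabp4CKO, 1.55, 1.12 and 1.22 in ICH-Fabp4flox/flox and 2.33, 4.69 and 3.06 in ICH-Fabp4CKO. Its ICH-Fabp4flox/flox values sat within a narrow band below all other groups, with a log2 fold change of -1.76 ± 0.32 (adjusted p = 0.00503). Dnah1 measured 10.8, 12.2 and 22.1 CPM in Sham-Fabp4flox/flox, 17.7, 23.1 and 25.1 in Sham-Fabp4CKO, 4.08, 4.24 and 7.54 in ICH-Fabp4flox/flox and 6.14, 13.96 and 5.68 in ICH-Fabp4CKO, so that library 2 of ICH-Fabp4CKO stood well above its group and within the range of Sham-Fabp4flox/flox. In controls Dnah1 changed by -1.53 ± 0.38 (adjusted p = 0.0155), a call lost without ICH-Fabp4flox/flox library 2 (adjusted p = 0.0602). Dnah6 fell by 1.87 (adjusted p = 0.0292) and by 2.72 without ICH-Fabp4flox/flox library 1, and its call was lost without Sham-Fabp4flox/flox library 3 or ICH-Fabp4flox/flox library 2 (adjusted p up to 0.0971). Dnah7a, Dnah7b and Dnah7c are near-identical copies between which reads may be shared, and Dnah7b and Dnah7c, at log2 fold changes of 0.44 and -0.64, did not pass.

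The intermediate chains, which hold the arms to the doublet, were lower in 4 of 5. Dnai3 measured 1.93, 3.23 and 3.98 CPM in Sham-Fabp4flox/flox, 1.99, 2.42 and 3.49 in Sham-Fabp4CKO, 0.422, 0.249 and 0.0531 in ICH-Fabp4flox/flox and 2.198, 1.23 and 1.75 in ICH-Fabp4CKO. Every ICH-Fabp4flox/flox library was far below all others, while of the ICH-Fabp4CKO libraries only library 1 lay within the sham range. Its log2 fold change in controls was -3.73 ± 0.62 (adjusted p = 0.00333), and -4.36 without ICH-Fabp4flox/flox library 1. Dnai1, an outer arm chain, was at 3.37, 3.94 and 5.37 CPM in Sham-Fabp4flox/flox, 3.51, 4.07 and 6.94 in Sham-Fabp4CKO, 1.97, 1.43 and 1.22 in ICH-Fabp4flox/flox and 1.68, 3.25 and 2.02 in ICH-Fabp4CKO, and both ICH groups lay under both sham groups. It fell by 1.502 in controls (adjusted p = 0.00914). Dnai4 fell by 0.80 (adjusted p = 0.0488), a call lost whichever library was left out (adjusted p up to 0.118). Dnai2, the partner of Dnai1 in the same arm and a gene with an X-box-like site, did not pass, with 5.16, 4.93 and 7.64 CPM in Sham-Fabp4flox/flox, 6.47, 5.06 and 8.09 in Sham-Fabp4CKO, 7.25, 8.48 and 6.80 in ICH-Fabp4flox/flox and 5.62, 7.30 and 5.14 in ICH-Fabp4CKO and a log2 fold change of 0.30 ± 0.24 (adjusted p = 0.33, named after its values were seen). Of the arm assembly factors, Cfap300 fell by 1.05 (adjusted p = 0.0358), a call kept only without Sham-Fabp4flox/flox library 1 or 2 (adjusted p up to 0.0884 otherwise), and Cfap298 gave -0.25 (adjusted p = 0.16).

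Radial spoke genes, whose products pass signals from the central pair to the arms, were lower in 7 of 10, with a median of -1.39. Rsph4a (ENSMUSG00000039552), a spoke head protein, was at 6.94, 7.78 and 10.2 CPM in Sham-Fabp4flox/flox, 12.8, 12.4 and 13.8 in Sham-Fabp4CKO, 2.11, 0.997 and 0.478 in ICH-Fabp4flox/flox and 5.36, 6.39 and 5.79 in ICH-Fabp4CKO. The 4 groups did not overlap: Sham-Fabp4CKO was highest, then Sham-Fabp4flox/flox, ICH-Fabp4CKO and ICH-Fabp4flox/flox. Its log2 fold change in controls was -2.87 ± 0.48 (adjusted p = 0.00345), and -3.53 without ICH-Fabp4flox/flox library 1. Cfap61, of the calmodulin-associated spoke complex, fell by 2.65 (adjusted p = 0.00185), and Cfap91, a spoke base protein, by 2.36 (adjusted p = 0.00355). The spoke stalk genes Rsph3a and Rsph3b, a near-identical pair that reads may not tell apart, stayed close to their sham levels, at log2 fold changes of 0.09 ± 0.18 and -0.10 ± 0.20 (named after their values were seen).

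In the nexin-dynein regulatory complex, the link between doublets, 2 of 3 genes fell. Drc3 was at 8.77, 11.2 and 16.4 CPM in Sham-Fabp4flox/flox, 11.3, 10.8 and 14.3 in Sham-Fabp4CKO, 3.94, 3.55 and 3.72 in ICH-Fabp4flox/flox and 5.75, 7.94 and 5.90 in ICH-Fabp4CKO, with the ICH-Fabp4flox/flox libraries close together and below all others. Its log2 fold change in controls was -1.74 ± 0.27 (adjusted p = 0.00272). Drc7 measured 6.36, 9.69 and 16.01 CPM in Sham-Fabp4flox/flox, 5.73, 5.78 and 8.41 in Sham-Fabp4CKO, 2.04, 2.24 and 0.584 in ICH-Fabp4flox/flox and 4.59, 4.95 and 3.28 in ICH-Fabp4CKO, and here Sham-Fabp4flox/flox library 3 was the highest of the 12. It fell by 2.78 in controls (adjusted p = 0.00605).

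Central pair genes fell in 6 of 10, with a median of -1.86. Hydin (ENSMUSG00000059854), a giant projection protein whose loss causes hydrocephalus in mice, was at 5.93, 5.15 and 9.96 CPM in Sham-Fabp4flox/flox, 10.1, 11.1 and 11.6 in Sham-Fabp4CKO, 1.48, 0.374 and 0.0531 in ICH-Fabp4flox/flox and 3.49, 4.58 and 4.15 in ICH-Fabp4CKO. Each ICH-Fabp4flox/flox value was under each ICH-Fabp4CKO value, and both ICH groups were under both sham groups. Its log2 fold change in controls was -3.58 ± 0.78 (adjusted p = 0.00989), and -5.09 without ICH-Fabp4flox/flox library 1, the highest of the 3. Spag16 measured 2.60, 3.78 and 3.56 CPM in Sham-Fabp4flox/flox, 3.70, 4.39 and 5.33 in Sham-Fabp4CKO, 0.844, 0.436 and 0.266 in ICH-Fabp4flox/flox and 2.07, 3.68 and 2.62 in ICH-Fabp4CKO, the ICH-Fabp4flox/flox libraries again apart from all others, and fell by 2.75 (adjusted p = 0.00329). Cfap54 was at 7.95, 7.01 and 10.1 CPM in Sham-Fabp4flox/flox, 10.6, 9.13 and 13.1 in Sham-Fabp4CKO, 3.17, 2.31 and 0.956 in ICH-Fabp4flox/flox and 5.88, 8.31 and 11.8 in ICH-Fabp4CKO, where ICH-Fabp4CKO library 3 sat inside the Sham-Fabp4CKO range. It fell by 2.02 in controls (adjusted p = 0.00714). Spag17, with a log2 fold change of -1.69 ± 0.77, did not pass in controls (adjusted p = 0.11), its ICH-Fabp4flox/flox values being 0.915, 0.187 and 0.106 CPM beside 0.964, 0.767 and 1.91 CPM in Sham-Fabp4flox/flox.

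Microtubule inner proteins, which stiffen the doublets from within, fell in 9 of 16, with a median of -1.67. Tekt1, a tektin filament protein, was at 4.38, 4.65 and 6.82 CPM in Sham-Fabp4flox/flox, 5.08, 4.39 and 7.03 in Sham-Fabp4CKO, 1.62, 1.75 and 1.38 in ICH-Fabp4flox/flox and 4.20, 4.37 and 3.28 in ICH-Fabp4CKO. The ICH-Fabp4flox/flox libraries were tight and below all others, while the ICH-Fabp4CKO libraries lay under the lowest sham value, libraries 1 and 2 only slightly, and Tekt1 fell by 1.78 in controls (adjusted p = 0.0033). Cfap141 fell by 3.44 (adjusted p = 0.00983), between -4.13 without ICH-Fabp4flox/flox library 1 and -2.81 without library 3. Cfap20, which is also needed outside motile cilia, fell by only 0.49 (adjusted p = 0.0267) and was lost without Sham-Fabp4flox/flox library 1 or 3 or ICH-Fabp4flox/flox library 2 (adjusted p up to 0.0761). Cfap90 measured 4.00, 5.20 and 7.64 CPM in Sham-Fabp4flox/flox, 7.90, 7.43 and 9.84 in Sham-Fabp4CKO, 1.48, 1.06 and 1.38 in ICH-Fabp4flox/flox and 1.62, 7.41 and 0.601 in ICH-Fabp4CKO. In ICH-Fabp4CKO, library 2 was at the sham level and libraries 1 and 3 were far under it, so that the group held no common level. Tekt5 (1.87, 10.2 and 2.02 CPM in ICH-Fabp4CKO) and Cfap20dc (1.81, 10.7 and 2.84 CPM) split the 3 libraries in the same way, with library 2 high, the library that was also high in cortical neuron markers, and the part of those cells in these values was not tested. Tekt5 was singled out after its values were seen. Cfap90 fell in controls by 2.14 (adjusted p = 0.00296).

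The ruler proteins Ccdc39 and Ccdc40, which work as a pair to space the arms along the doublet, parted in the test but not in sign. Ccdc40 was at 5.11, 4.87 and 6.51 CPM in Sham-Fabp4flox/flox, 7.35, 8.15 and 10.6 in Sham-Fabp4CKO, 4.08, 1.18 and 1.49 in ICH-Fabp4flox/flox and 4.78, 4.64 and 4.43 in ICH-Fabp4CKO, and fell by 1.35 in controls (adjusted p = 0.047). That call was kept only without ICH-Fabp4flox/flox library 1, where the log2 fold change was -2.06, and was lost on leaving out any other library (adjusted p up to 0.115). Ccdc39, at 4.14, 4.27 and 5.16 CPM in Sham-Fabp4flox/flox and 5.77, 2.99 and 2.23 CPM in ICH-Fabp4flox/flox, gave -0.36 ± 0.36 (adjusted p = 0.44). Of 13 tested Cfap genes with no role assigned here, 5 fell, among them Cfap70 by 2.21 (adjusted p = 0.00668) and Cfap418 by 0.74 (adjusted p = 0.00857), both in every fit that left out 1 library. Cfap157, Cfap57 and Cfap20dc fell by 2.36, 1.57 and 0.95. Cfap157 was lost without Sham-Fabp4flox/flox library 2 or 3 or ICH-Fabp4flox/flox library 2 or 3 (adjusted p up to 0.105) and stood at -3.58 without ICH-Fabp4flox/flox library 1. Cfap57 passed only without that library, at -2.22 (adjusted p up to 0.0901 otherwise). Cfap20dc was lost without Sham-Fabp4flox/flox or ICH-Fabp4flox/flox library 2. Cfap36 lay the other way, at 66.4, 67.9 and 62.7 CPM in Sham-Fabp4flox/flox and 88.8, 82.5 and 75.1 CPM in ICH-Fabp4flox/flox, without passing (adjusted p = 0.0952, named after its values were seen).

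The regulator and the structural genes differed in their values. Foxj1 was at 21.7, 22.0 and 26.8 CPM in Sham-Fabp4flox/flox, 24.8, 32.3 and 33.0 in Sham-Fabp4CKO, 23.003, 30.1 and 17.6 in ICH-Fabp4flox/flox and 36.4, 27.8 and 25.8 in ICH-Fabp4CKO. The groups overlapped, and the log2 fold change was -0.04 ± 0.21 in controls (adjusted p = 0.89) and -0.00084 in Fabp4CKO mice (SE 0.19, adjusted p = 0.997), a sign that turned when single libraries were left out. Mcidas, which starts multiciliation in newly forming cells, was at or near the floor throughout, between 0 and 0.273 CPM. Tmem212, an ependymal marker, was at 3.42, 2.68 and 5.37 CPM in Sham-Fabp4flox/flox, 4.30, 4.43 and 5.06 in Sham-Fabp4CKO, 2.81, 0.187 and 0 in ICH-Fabp4flox/flox and 4.07, 3.78 and 2.51 in ICH-Fabp4CKO. Library 1 of ICH-Fabp4flox/flox stayed within the range of Sham-Fabp4flox/flox, whereas libraries 2 and 3 were nearly at 0, and the fold change of -2.05 ± 1.11 did not pass (adjusted p = 0.16).

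**Figure D2:**
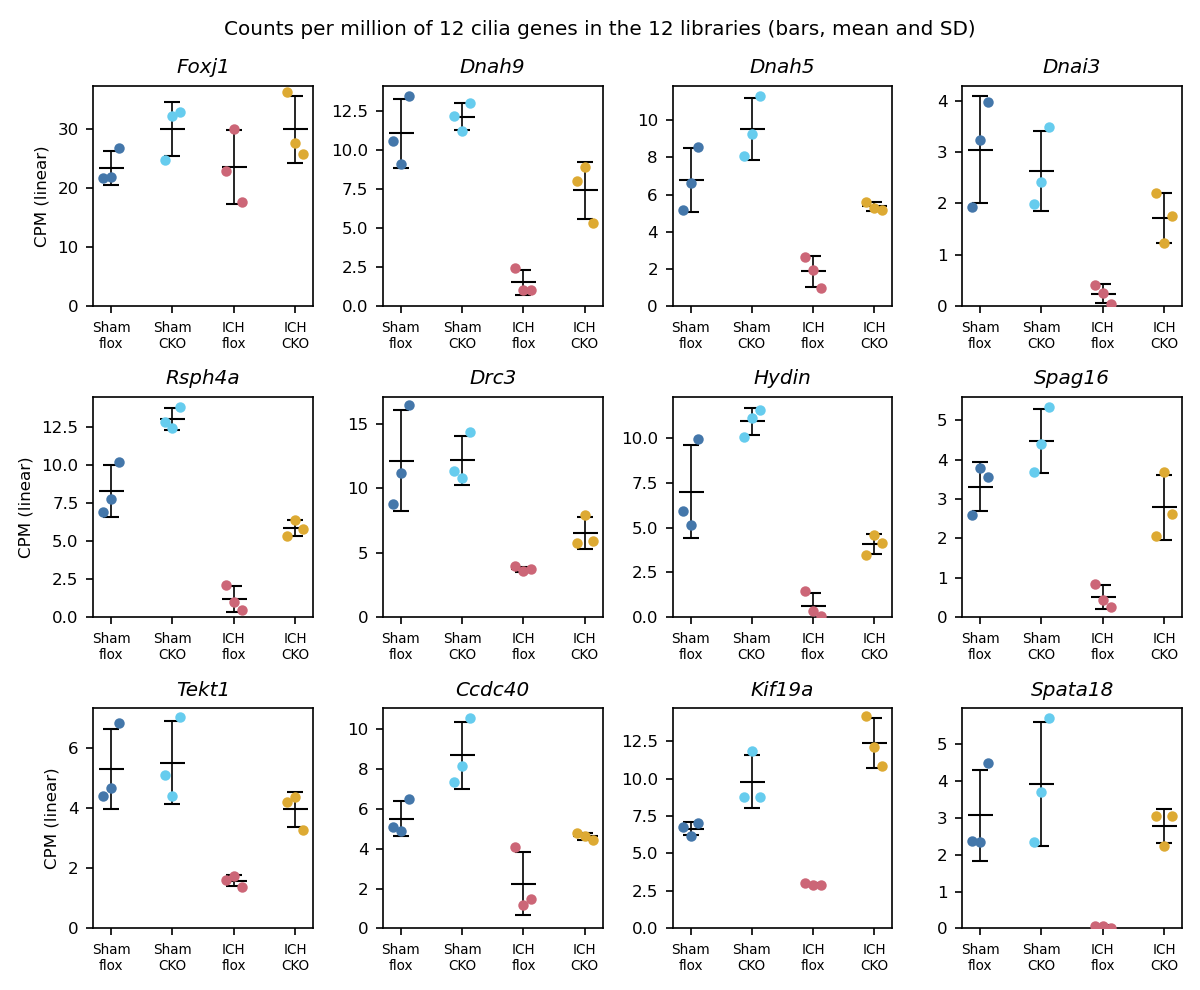
CPM on a linear axis of 12 cilia genes in the 12 libraries, points for libraries, bars for the mean and SD of the 3 libraries of a group. For Dnah9, Hydin, Spag16 and Dnai3 the ICH-Fabp4flox/flox points lie under all others, for Foxj1 the groups overlap, and the Kif19a and Spata18 panels are the genes that led to the choice.

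Of the 93 genes, 16 were too low to test in controls. At the floor in ICH-Fabp4flox/flox, but above it in both sham groups, were Cfap299, at least 4.03-fold lower than in Sham-Fabp4flox/flox against 3 counts per library, and Cfap58, Dnah7a, Rsph14, Cfap73 and Tekt3. Cfap53 was tested and also at the floor there, at least 4.93-fold lower and called (adjusted p = 0.00818). Cfap97d1 and Cfap107 were at the floor in all 4 groups.

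The second comparison, ICH against sham in Fabp4CKO mice, used 6 other libraries. Here 20 of 80 tested genes fell and 0 rose, beside 11.1% and 24.5% of all 14737 genes. At an unadjusted p below 0.05, 35 were lower and 0 higher, beside 22.2% and 30.3%, and DESeq2 called 0 higher. The median log2 fold change was -0.64, beside 0.01 over all genes, and 76 of the 80 were below 0, against 49.3% of all genes. The ICH-Fabp4CKO libraries lay wholly under the Sham-Fabp4CKO libraries for 42 of the 80 and wholly over them for 0, against 28.9% and 33.2% of all genes. Neither Kif19a nor Spata18 was among the 20. Central pair genes (3 of 10), inner arm heavy chains (3 of 8) and radial spoke genes (3 of 10) held 9 of the calls. This count leaned on single libraries: it was 2, Hydin and Rsph4a, without any 1 of the Sham-Fabp4CKO libraries or without ICH-Fabp4CKO library 1, 7 without library 3, and 41 without library 2, the library rich in cortical neuron markers. The numbers of all genes called moved with it, from 1642 lower to 148 without library 1 and to 4896 without library 2. In 1 fit over all 12 libraries it was 13 of 84 genes tested, beside 17.0% of all genes, so no higher a share than among all genes.

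Hydin fell by 1.42 (SE 0.18, adjusted p = 0.00599) and Rsph4a by 1.15 (SE 0.15, adjusted p = 0.0064), and both kept their calls whichever library was left out. In 1 of the other alternative fits Hydin did not pass. Dnah5 gave -0.83 ± 0.19 (adjusted p = 0.022) and Dnah9 -0.71 ± 0.22 (adjusted p = 0.0495), where all 3 ICH-Fabp4CKO libraries were under all 3 Sham-Fabp4CKO libraries. Dnah6 and Dnah10, both of the inner arm, fell by 1.08 and 1.09. Drc3 fell by 0.89 and Drc1 by 0.92 (adjusted p = 0.0239 and 0.0353). Other than Hydin and Rsph4a, each named gene that fell here was kept in at most 2 of the 6 fits that each left out 1 library. Among those that did not pass were Dnai3 (-0.61 ± 0.34, adjusted p = 0.18), Spag16 (-0.67 ± 0.29, adjusted p = 0.10) and Tekt1 (-0.48 ± 0.25, adjusted p = 0.17).

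Both comparisons tested 76 of the genes, and they share no library. Of these, 15 fell in both, which is 34.9% of the 43 that fell in controls and 75% of the 20 that fell in Fabp4CKO mice: Ccdc40, Cfap20, Cfap70, Cfap91, Cfap141, Cfap418, Dnah1, Dnah5, Dnah6, Dnah9, Dnai4, Drc3, Hydin, Rsph1 and Rsph4a. Cfap65, Dnah10, Drc1, Spag17 and Tekt2 passed the test in Fabp4CKO mice alone, but each was lower in controls too. Drc1 gave -0.94 in controls and -0.92 in Fabp4CKO mice. Cfap65 went from 90, 70 and 136 counts in Sham-Fabp4flox/flox to 51, 5 and 0 in ICH-Fabp4flox/flox. The 43 include Kif19a and Spata18, and the 15 do not. How many of all genes fell in both was not counted, so the overlap is not read as particular to the cilia genes. The fitted change was the lower in controls for 60 of the 76. The difference between the 2 responses, the interaction of ICH and genotype, passed for 0 of 84 genes, beside 0.00663% of all genes lower and 0.0133% higher. At an unadjusted p below 0.05 it was above 0 for 23 of the genes and below 0 for 1, beside 5.57% and 4.37% of all genes, and DESeq2 called 7 higher, beside 0.886% of all genes. Without regard to p, 20 of the 84 were below 0, beside 47.3%. These counts include the libraries on which the choice of the genes rested and carry no weight as a test.

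**Figure D3:**
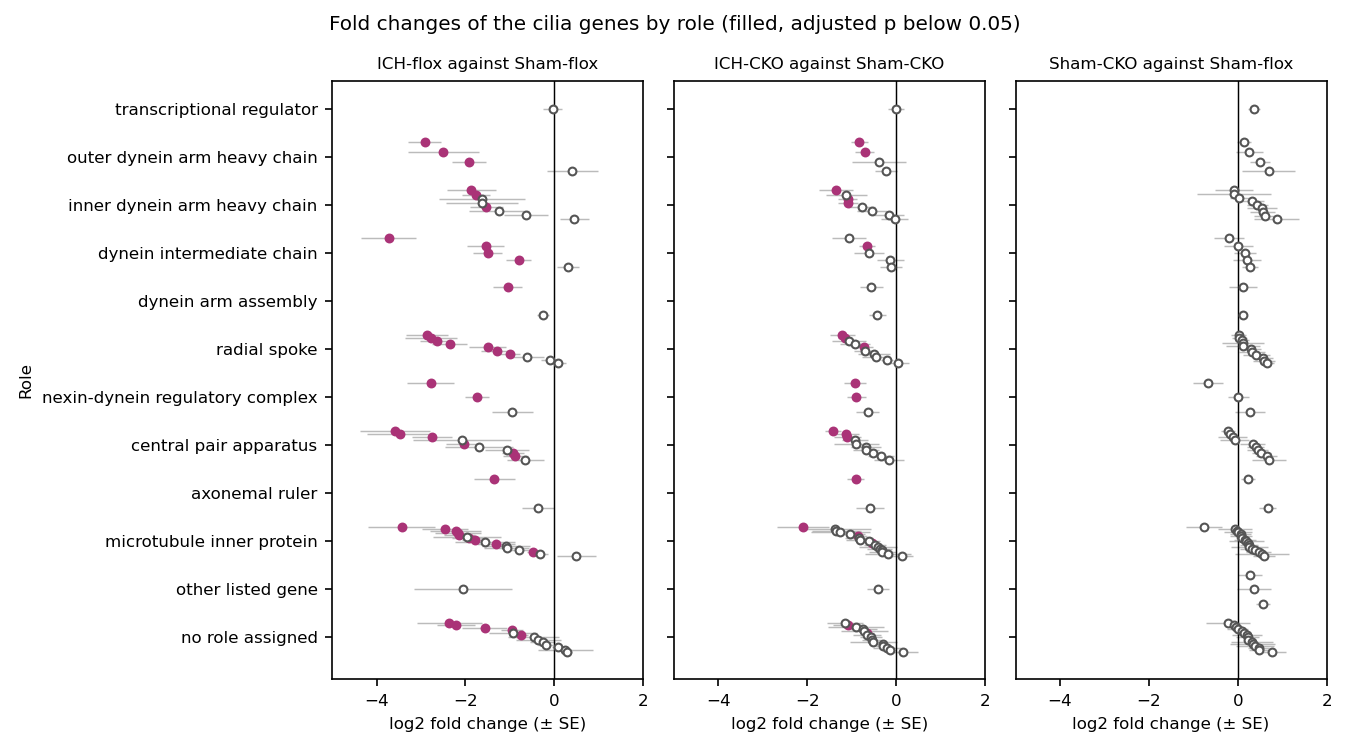
Log2 fold changes with SE of the tested cilia genes by role, in the 3 comparisons tested, filled where the adjusted p was below 0.05. Points lie left of 0 for nearly all roles in both ICH comparisons, further in floxed controls than in Fabp4CKO mice, and near or right of 0 between the sham groups. Kif19a and Spata18 are drawn between the sham groups only.

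The third comparison, between the sham groups, tested genotype without hemorrhage and used none of the libraries behind the choice of the genes. It called 0 of 82 genes in either direction, beside 0.111% of all 14395 genes lower and 0.00% higher, and the smallest adjusted p among the genes was 0.38. Most of the fold changes nevertheless lay on 1 side: the median was 0.24, beside 0.00 over all genes, and 15 of 82 were below 0, against 49.6% of all genes. At an unadjusted p below 0.05, 11 were higher and 0 lower, beside 4.15% and 6.07% of all genes, and DESeq2 called 0 in either direction. The groups did not overlap for 9 genes that were higher and 1 that was lower, beside 5.98% and 8.86%. Rsph4a gave the smallest p, at 0.66 ± 0.16 (adjusted p = 0.38), its 3 Sham-Fabp4CKO libraries all above the Sham-Fabp4flox/flox libraries. Ccdc40 (0.67 ± 0.19, adjusted p = 0.43) was also without overlap, as were Kif19a (0.57 ± 0.16, adjusted p = 0.43) and Hydin (0.65 ± 0.24, adjusted p = 0.48). Spata18 gave 0.37 ± 0.39 (adjusted p = 0.70). Foxj1 gave 0.37 without passing, and passed in 1 alternative fit. Without Sham-Fabp4flox/flox library 3, 16 genes were higher and Dnah17 was lower, while 1531 genes of the whole table were then higher and 1331 lower.

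That library also stood out within its group. Over 9 striatal neuron markers it had 5775 CPM, against 1810 and 2090 in libraries 1 and 2, beside 4795, 6745 and 3838 in Sham-Fabp4CKO. Over 6 cortical neuron markers it had 108 CPM, against 393 and 552, beside 163, 150 and 101 in Sham-Fabp4CKO. The part of this difference in the comparison of the sham groups was not tested. Sham-Fabp4flox/flox library 3 was the highest of its 3 for 62 of 84 genes, against 38.7% of all genes, and Sham-Fabp4CKO library 3 for 65 of 84, against 34.2%. After ICH, ICH-Fabp4flox/flox library 1 was highest for 58 of 84 (43.5% of all genes), and ICH-Fabp4CKO library 2 for 45 (43.6%). So most of the genes differed in the same direction between libraries of 1 group as well. Their summed level in ICH-Fabp4flox/flox library 1 was 456 CPM, and 409 CPM without TMM scaling.

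Between ICH-Fabp4CKO and ICH-Fabp4flox/flox, the contrast behind the choice, Kif19a (ENSMUSG00000010021), a kinesin that limits the length of motile cilia, was at 6.79, 6.19 and 7.02 CPM in Sham-Fabp4flox/flox, 8.78, 11.9 and 8.78 in Sham-Fabp4CKO, 3.02, 2.87 and 2.87 in ICH-Fabp4flox/flox and 14.2, 12.1 and 10.9 in ICH-Fabp4CKO. The ICH-Fabp4flox/flox libraries were the lowest and nearly equal, and the ICH-Fabp4CKO libraries overlapped those of Sham-Fabp4CKO and exceeded those of Sham-Fabp4flox/flox. Spata18 (ENSMUSG00000029155), a regulator of mitochondrial quality also found in ciliated cells, was at 2.36, 2.35 and 4.49 CPM in Sham-Fabp4flox/flox, 2.36, 3.72 and 5.70 in Sham-Fabp4CKO, 0.0703, 0.0623 and 0 in ICH-Fabp4flox/flox and 3.04, 2.24 and 3.06 in ICH-Fabp4CKO. It was at the floor in ICH-Fabp4flox/flox, at least 16.5-fold lower than in Sham-Fabp4flox/flox against 3 counts per library, and within the sham range or just under it in ICH-Fabp4CKO. Of the 73 genes that could be compared, 28 were higher in ICH-Fabp4CKO without overlap and 2 lower, beside 8.30% and 11.5% of all genes. The median difference was 0.83 on the log2 scale, beside 0.06, and 15 genes were below 0, beside 43.8% of all genes. These counts use the libraries that chose the genes, and nothing is read from them.

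Genes that build or steer cilia without belonging to the 93 were described by the same test, and their counts stand beside 19.3% of all genes that fell and 26.2% that rose in controls, and 11.1% and 24.5% in Fabp4CKO mice. Of 12 tested regulators of multiciliation, 3 fell and 2 rose after ICH in controls. Trp73, upstream of Foxj1 in multiciliated cells, was at 3.57, 4.22 and 6.71 CPM in Sham-Fabp4flox/flox, 4.81, 3.81 and 5.19 in Sham-Fabp4CKO, 0.985, 0.125 and 0.213 in ICH-Fabp4flox/flox and 0.840, 1.33 and 1.37 in ICH-Fabp4CKO. Both ICH groups were below both sham groups, and Trp73 fell by 3.54 in controls (adjusted p = 0.00548), by 4.80 without ICH-Fabp4flox/flox library 1, and by 1.95 in Fabp4CKO mice (adjusted p = 0.00768). Gmnc, which commits cells to multiciliation, fell to the floor in ICH-Fabp4flox/flox (adjusted p = 0.0122) and the X-box factor Rfx3 also fell, whereas E2f5 rose by 0.76 (adjusted p = 0.0101, and 0.056 without Sham-Fabp4flox/flox library 2) and E2f4 rose too. In Fabp4CKO mice Trp73 fell and E2f4 rose, among 11 tested.

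Of 16 tested genes for dynein arm assembly and docking, 3 fell and 2 rose in controls, where 19.3% of all genes fell, so the count of decreases was near that of all genes. Zmynd10, an assembly factor, fell by 1.76 (adjusted p = 0.00987), and the docking genes Odad2 and Odad4 fell as well. Pih1d1 and Dnaaf5, which many cell types use, rose by 0.99 and 0.89. Of 31 further axonemal genes, 9 fell in controls and 0 rose, and 4 of 32 fell in Fabp4CKO mice. Spag6l, the central pair gene that carries most of this function in mice, fell by 1.97 in controls and by 1.06 in Fabp4CKO mice (adjusted p = 0.00406 and 0.0129), while Spag6 itself never exceeded 0.426 CPM.

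Intraflagellar transport is the traffic along the axoneme that motile and primary cilia share. In controls 13 of its 28 tested genes fell and 1, Ift43, rose, with a median of -0.56, and 8 of 29 fell in Fabp4CKO mice, with a median of -0.32. Wdr19 and Dync2h1, of the retrograde machinery, fell by 0.96 and 0.97 in controls (adjusted p = 0.00256 and 0.00271). Of 20 BBSome and primary cilium genes, 7 fell and 3 rose in controls, and 7 fell and 2 rose in Fabp4CKO mice, with medians of -0.40 and -0.43. These genes are used by neurons and glia too, and 5 general neuron markers all fell in controls, from a summed 3546, 4222 and 3319 CPM in Sham-Fabp4flox/flox to 969, 1564 and 2235 CPM in ICH-Fabp4flox/flox. The part of neurons in the transport values was not tested.

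**Figure D4:**
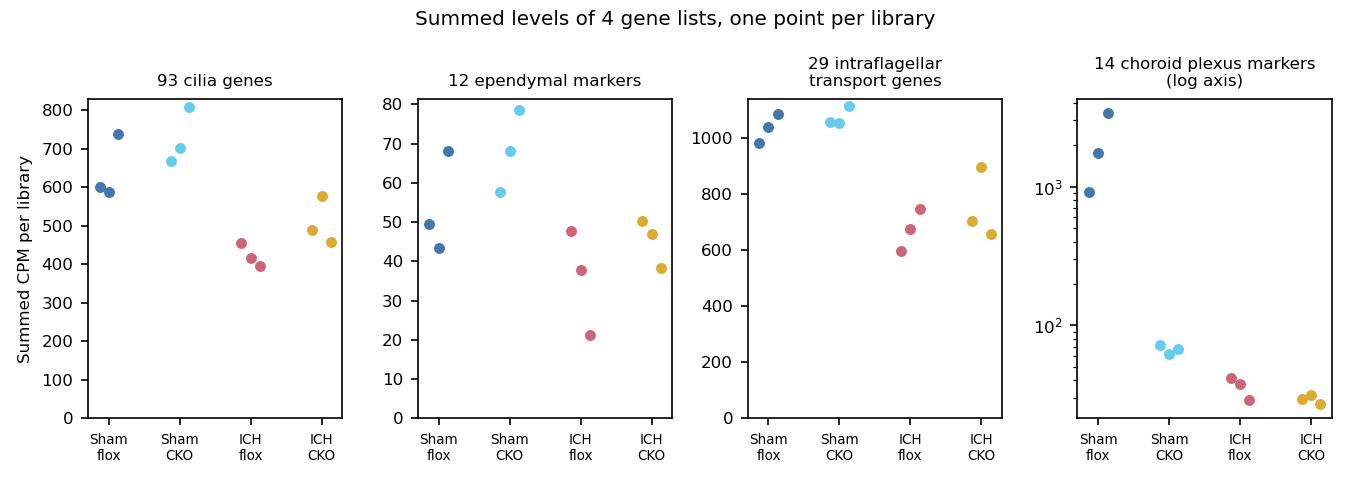
CPM summed over 4 gene lists, a point for each library, with the choroid plexus panel on a log axis and the others on linear axes from 0. The cilia genes and the intraflagellar transport genes lie lower in both ICH groups, the 12 ependymal markers, Rarres2 included, overlap between Sham-Fabp4flox/flox and both ICH groups (without Rarres2, Sham-Fabp4flox/flox is at 34.4 to 54.8 CPM and ICH-Fabp4flox/flox at 4.04 to 19.6 CPM), and the choroid plexus markers are high in the Sham-Fabp4flox/flox libraries alone.

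Markers of the cells that carry motile cilia moved in part with these genes. Of the 12 ependymal markers outside the 93, 6 fell and 1, Rarres2, rose in controls, and 4 fell in Fabp4CKO mice, beside 19.3% and 26.2% of all genes in controls and 11.1% lower in Fabp4CKO mice. Ccdc153 fell by 3.11 and by 1.43 (adjusted p = 0.0241 and 0.0245), and by 5.30 in controls without ICH-Fabp4flox/flox library 1. Its call in controls was lost without Sham-Fabp4flox/flox library 1 or 3 or ICH-Fabp4flox/flox library 2 (adjusted p up to 0.0793). Rarres2 rose in controls by 1.04 (adjusted p = 0.0115, and 0.054 without ICH-Fabp4flox/flox library 2). The other 11 had fitted log2 fold changes below 0 in controls, and the median of the 12 was -2.09, beside 0.02 over all genes. Choroid plexus markers were distributed otherwise. Summed over 14 genes they were at 911, 1735 and 3374 CPM in Sham-Fabp4flox/flox, 72.6, 62.3 and 67.7 in Sham-Fabp4CKO, 42.0, 37.9 and 29.2 in ICH-Fabp4flox/flox and 29.6, 31.4 and 27.2 in ICH-Fabp4CKO. All 14 fell in controls, 5 of 10 tested fell in Fabp4CKO mice while Aqp1 rose, and 7 of 14 were lower in Sham-Fabp4CKO than in Sham-Fabp4flox/flox, a call that Ttr kept in 2 of the 6 fits leaving out 1 library. In this sum, led by Ttr at 783, 1483 and 2929 CPM, the other 9 libraries did not approach the Sham-Fabp4flox/flox libraries. Not every marker shared this. Clic6 had 395, 655 and 1409 counts in Sham-Fabp4flox/flox and 519, 427 and 434 in Sham-Fabp4CKO, and Prlr had 167, 342 and 656 against 280, 229 and 344. Sham-Fabp4flox/flox library 3, the highest of its group for most cilia genes and in striatal neuron markers, was also the highest in the choroid plexus sum. Against the Sham-Fabp4CKO libraries, which held 62.3 to 72.6 CPM of these markers, ICH-Fabp4flox/flox gave 54 of 80 genes lower, of which 41 were among the 43, and 2 higher, Cfap36 and Dnah17. Over all 14749 genes that comparison tested, 27.1% were lower and 32.5% higher. That comparison crosses genotypes and was added after the results had been seen.

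The subventricular zone, which adjoins the ependyma, was probed with 8 neuroblast and progenitor genes. In controls 4 of the 8 fell and 0 rose, beside 19.3% and 26.2% of all genes. Among them Dlx2, an interneuron lineage factor, fell by 2.09 (adjusted p = 0.00219). In Fabp4CKO mice 0 of the 8 fell and 2 rose, beside 11.1% and 24.5% of all genes, so the count of increases was near that of all genes. The 2 were Thbs4 and Cd24a, which rose by 2.22 and 1.28 (adjusted p = 0.00634 and 0.0463). Thbs4 measured 6.55, 3.89 and 11.9 CPM in Sham-Fabp4flox/flox, 6.89, 9.27 and 6.89 in Sham-Fabp4CKO, 3.31, 5.36 and 2.71 in ICH-Fabp4flox/flox and 29.6, 50.6 and 27.3 in ICH-Fabp4CKO, with the ICH-Fabp4CKO libraries above all others. How near each sample lay to the ventricle was not recorded in the sources used here, and distance from the ventricle and response to hemorrhage cannot be told apart in these data.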

How the data were processed

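Poly(A)-enriched RNA of brain tissue was sequenced on an Illumina instrument, and the authors deposited 1 table of estimated counts (expected counts) per gene and library, without normalization. Values were whole in all but 7.36 to 8.69% of entries per library and were rounded to whole numbers here, and 13 of the cilia genes had a value that was not whole in some library. The submitters' processing notes name HISAT2, Bowtie2 2.2.8, StringTie 1.3.1 and DESeq2 without their roles; the genome build was not given in the sources used here. Library totals, 15650813 to 22406216, set the precision of low genes, 1 count being 0.0448 to 0.0703 CPM.

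Each comparison of 3 against 3 libraries was fitted on the whole table with edgeR 4.0.16 (limma 3.58.1, R 4.3.3): filterByExpr (min.count 10, min.total.count 15), TMM, the quasi-likelihood test, and Benjamini-Hochberg adjustment at 0.05 over all genes tested. The interaction was fitted over 12 libraries. The 3 comparisons against sham or between sham groups were tested on simulated counts, the interaction was not. Of 200 genes given a 2-fold or 4-fold change, 111 were called for ICH in controls, 92 for ICH in Fabp4CKO mice and 176 between sham groups. Those at 2-fold numbered 22, 12 and 79, so 2-fold changes mostly went uncalled in the ICH comparisons. Unchanged genes were called 9, 7 and 21 times. Group labels came from the sample titles. Whether libraries with the same number belong together is not stated, so the comparisons do not pair them, and a replicate block was run as an alternative.

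The members and lists were chosen with earlier results of these data known. Genes named are those listed by name in the definition, the 2 with the smallest p of each role in each tested comparison, any gene called where at most 10 were called, up to 6 called genes without a role, genes at the floor, and the 3 with the smallest p of each other list; exceptions are marked. Alternatives were RLE scaling, no TMM, DESeq2 1.42.0, no filter, at least 10 counts in every library, 1 fit over 12 libraries, a replicate block, leaving out each library, and, added after the results were seen, Sham-Fabp4CKO as the reference and the ependymal sum without Rarres2. Promoter windows were matched by symbol or older symbol in Python 3.11.15 (pandas 2.3.3, numpy 2.4.6, matplotlib 3.10.9) and motifs were searched on both strands. The letters of some matching sites are not reported here.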

Additional observations from a re-analysis of the deposited data

Results flagged for a closer look

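The response to ICH differed between the genotypes, by the interaction term of edgeR's quasi-likelihood fit over 12 libraries, for 2 choroid plexus genes that are not among the cilia genes. Ttr, the transthyretin gene, had an interaction of 5.73 on the log2 scale (adjusted p = 0.0278), and Folr1, the folate receptor gene of choroid plexus, one of 7.33 (adjusted p = 0.0278). Ttr was at 783, 1483 and 2929 CPM in Sham-Fabp4flox/flox, beside 19.0, 19.0 and 14.2 CPM in Sham-Fabp4CKO, 22.7, 17.0 and 13.02 CPM in ICH-Fabp4flox/flox and 12.2, 6.4997 and 9.40 CPM in ICH-Fabp4CKO. Folr1 was at 5.16, 9.42 and 19.0 CPM in Sham-Fabp4flox/flox and at 1.34, 1.298 and 1.52 CPM in Sham-Fabp4CKO. In the ICH libraries Folr1 was at 0.0703, 0.0623 and 0 CPM in ICH-Fabp4flox/flox, which is the floor, and at 0.776, 1.12 and 0.929 CPM in ICH-Fabp4CKO, so its values did not overlap between genotypes in either the sham or the ICH libraries, and its fitted interaction depends on the prior count. How much choroid plexus each sample held cannot be told apart from genotype. Both calls were kept in 5 of the 12 fits that each left out 1 library.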

How the results depend on the processing

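The decrease of the cilia genes after ICH in floxed controls was counted 43 to 47 times under RLE scaling, without TMM, with DESeq2, without a filter and in 1 fit over 12 libraries, beside 17.3 to 21.8% of all genes. It was counted 26 times of 50 genes tested, beside 19.1% of all genes, where at least 10 counts were required in every library. That filter by construction drops genes that fell to low counts. Leaving out 1 library gave 26 to 53, beside 9.83 to 25.8% of all genes. With Sham-Fabp4CKO as the reference, 54 were lower and 2 higher, beside 27.1% and 32.5% of all genes. In Fabp4CKO mice the 20 genes became 13 of 84 tested in 1 fit over 12 libraries, beside 17.0% of all genes. They became 2 to 41 when 1 library was left out, beside 0.335 to 32.7% of all genes, and the cause was not tested. Between the sham groups, leaving out 1 library gave 0 to 16 genes higher and 0 to 1 lower, beside up to 10.5% and 9.12% of all genes. Between the ICH groups, the contrast behind the choice of the genes, no calls are given under any setting, because their libraries led to that choice. The interaction, which includes those libraries, passed above 0 for 7 genes with DESeq2 (0.886% of all genes) and for 0 to 4 when 1 library was left out. These counts carry no weight as a test. The summed level in ICH-Fabp4flox/flox library 1 was 409 CPM without TMM.

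Same-numbered libraries were not shown to be paired: their deviations correlated by 0.235, 0.044 and 0.165 across the control groups, short of 0.1 in 1 of 3 pairs. With the number as a replicate block, 43 of 77 genes fell in controls, beside 22.4% of all genes. In Fabp4CKO mice 6 of 80 fell (Dnah1, Dnah6, Dnah10, Drc1, Hydin and Rsph4a). That was no higher a share than the 7.50% among all genes.

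Foxj1 was near 0 in both comparisons of ICH with sham. It changed sign in controls in 1 fit over 12 libraries (0.0047), without Sham-Fabp4flox/flox library 3 (0.021) and without ICH-Fabp4flox/flox library 3 (0.12). In Fabp4CKO mice it did so without Sham-Fabp4CKO library 2 (0.050) or 3 (0.070) and without ICH-Fabp4CKO library 2 (0.049) or 3 (0.070). Over all fits leaving out 1 library, Foxj1 ranged from -0.29 to 0.12 in controls and from -0.17 to 0.070 in Fabp4CKO mice. Spata18 between the sham groups ranged from -0.017 without Sham-Fabp4CKO library 3 to 0.75 without Sham-Fabp4flox/flox library 3. Depth limits Mcidas, Spag6 and the other genes that were too low to test.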
